A study of Mus musculus with 12 samples.

Results

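The CC chemokine genes that act on monocytes and eosinophils were followed through 12 bulk RNA libraries of mouse lung fibroblasts. They are the rows of the deposited table named Ccl2, Ccl3, Ccl4, Ccl5, Ccl6, Ccl7, Ccl8, Ccl9, Ccl11 and Ccl12, 10 of its 20606 genes, and all 10 were present. The libraries form 4 groups of 3. N-MF and N-MyoF are the fibroblast subgroups abbreviated MF and MyoF from the lungs of normal mice, and M-MF and M-MyoF are the same subgroups from mice with lung metastasis. The series title names breast cancer lung metastasis and matrix fibroblasts expressing Tdo2. Strain, age, tumour cells, any pooling of mice and the sorting gates of the subgroups are not stated in the sources used here. No label says that the 3 libraries of a group are different mice, and the p-values cover no more than the spread among the libraries at hand.

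Chemokines are small secreted proteins that steer leukocytes by binding G-protein-coupled receptors, and the CC class is named for a pair of adjacent cysteines near the start of the mature protein. Ccl2, Ccl7, Ccl8 and Ccl12 are monocyte chemoattractants, of which Ccl2, Ccl7 and Ccl12 act through Ccr2. Ccl11, or eotaxin, recruits eosinophils through Ccr3. Ccl3 and Ccl5 act through Ccr1, a receptor shared by Ccl6 and Ccl9, and Ccl4 is a close relative of Ccl3. Fibroblasts make Ccl2, Ccl7 and Ccl11 in inflamed lung, while Ccl3, Ccl4, Ccl6 and Ccl9 are known mainly from myeloid cells.

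The defining cysteine pair of each gene is shown first, because it is what places the 10 in a single family. Each line gives 48 coding bases, 5′ to 3′, from the GENCODE transcripts of GRCm38, and the capitals mark the codons of the adjacent cysteines. The genes stand in chromosome order.

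Ccl2: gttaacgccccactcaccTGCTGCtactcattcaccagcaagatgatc
Ccl7: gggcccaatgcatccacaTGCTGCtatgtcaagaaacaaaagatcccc
Ccl11: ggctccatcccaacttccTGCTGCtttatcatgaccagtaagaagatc
Ccl12: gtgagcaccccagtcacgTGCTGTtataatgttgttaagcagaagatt
Ccl8: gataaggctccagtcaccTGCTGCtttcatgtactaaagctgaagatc
Ccl5: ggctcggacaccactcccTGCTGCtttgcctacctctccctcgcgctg
Ccl9: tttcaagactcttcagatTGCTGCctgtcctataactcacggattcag
Ccl6: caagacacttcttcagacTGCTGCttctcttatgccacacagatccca
Ccl3: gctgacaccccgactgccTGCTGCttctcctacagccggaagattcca
Ccl4: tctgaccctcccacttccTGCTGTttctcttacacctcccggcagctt

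Each coding sequence held this pair exactly once. The pair was spelled TGCTGT in Ccl4 and Ccl12 and TGCTGC in the other 8 genes. It began at codon 32 to 34 in 8 genes, at codon 50 in Ccl6 and at codon 57 in Ccl9. Ccl6 and Ccl9 also had 4 exons, against 3 in each of the others. Coding identity was highest for Ccl3 with Ccl4 at 68.1%, followed by Ccl7 with Ccl11 at 66.3%, Ccl7 with Ccl8 at 64.7% and Ccl6 with Ccl9 at 64.6%. The longest exact run of bases shared by any pair was 23, between Ccl6 and Ccl9.

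All 10 genes lie on chromosome 11 of GRCm38, by RefSeq, in 2 stretches of 5 genes. The first covers 81.2 kb and runs on the plus strand from Ccl2 (chr11:82035577-82037452) through Ccl7 (chr11:82045712-82047525), Ccl11 (chr11:82057832-82062955) and Ccl12 (chr11:82101845-82103399) to Ccl8 (chr11:82115185-82116799). The second starts 1.41 Mb further on and covers 139 kb. It holds Ccl5 (chr11:83525778-83530518), Ccl9 (chr11:83572917-83578636), Ccl6 (chr11:83587886-83593087) and Ccl3 (chr11:83647843-83649378) on the minus strand and Ccl4 (chr11:83648624-83664683) on the plus strand. These are called the Ccl2 stretch and the Ccl5 stretch here. The RefSeq span of Ccl4 overlaps Ccl3 on the opposite strand, whereas the GENCODE span of Ccl4 starts at base 83662584, beyond Ccl3. The sources used here give neither the annotation nor the strand setting of the authors' counting, so reads in that overlap could have been counted for either gene.

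Values are FPKM, fragment counts scaled by transcript length and by library size, which allow levels to be compared between genes but leave the depth unknown. They summed to 528176 to 618478 per library, and 11466 to 12682 genes reached 1 FPKM. The summed level of 8 fibroblast markers, led by Dcn and Col3a1, was 16068 to 22006 FPKM in the MF libraries and 2412 to 3934 in the MyoF libraries. The 6 epithelial markers, led by Scgb1a1 of club cells and Sftpc of type II alveolar cells, summed to 2244 to 3024 FPKM in the MF libraries and 15809 to 19199 in the MyoF libraries. In the MyoF libraries the epithelial sum was thus above the fibroblast sum. The 6 markers common to leukocytes, led by Tyrobp and Cd52, summed to 15.5 to 27.5 FPKM in the MF libraries, 82.5 to 98.4 in N-MyoF and 388 to 406 in M-MyoF, and none was at 0 in all libraries. In bulk RNA, fewer cells of a type and less RNA per cell cannot be told apart. The part of these other cell types in the chemokine levels was not tested.

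The 4 libraries numbered 2 stood apart for some members, and this comes before the results because it sets the error of Ccl3 and Ccl4. Library 2 was the highest of its group in all 4 groups for Ccl4 and Ccl12. It was so for 331, or 2.49%, of the 13300 genes that passed the filter on low values, which include Ccl4 and not Ccl12. Library 1 had that place for 3.65% of genes and library 3 for 2.6%. Ccl4 in library 2 exceeded the mean of libraries 1 and 3 by 7.84 FPKM in N-MF, 14.4 in M-MF, 9.31 in N-MyoF and 14.7 in M-MyoF. Kap, a kidney androgen-regulated gene, was chosen after its values were seen. It was at 19.7, 31.9, 34.9 and 21.9 FPKM in library 2 of N-MF, M-MF, N-MyoF and M-MyoF and listed at 0 in the other 8 libraries. Library 2 was also the highest in all 4 groups for 2 of 15 monocyte and macrophage markers, C1qb and C1qc. It was so for 2 of 10 neutrophil markers, Ltf and Cxcr2, and for 1 of 6 common leukocyte markers, Tyrobp. The same held for 1 of 6 epithelial markers, Scgb1a1, and for 4 of 8 fibroblast markers, all collagen genes. In M-MF, C1qb was at 1.79, 5.18 and 1.71 FPKM in libraries 1 to 3 and Tyrobp at 5.01, 10.62 and 5.6. The part of these genes' cells in the Ccl3 and Ccl4 values of library 2 was not tested. The metastasis results of Ccl3 and Ccl4 and the level of Ccl12 are therefore given with and without the 4 libraries numbered 2. Each group then held 1 library fewer. The differences of Ccl3 and Ccl4 between MF and MyoF are given with all libraries only. Without the libraries numbered 2, 9 members still passed in both comparisons between the subgroups.

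**Figure D1:**
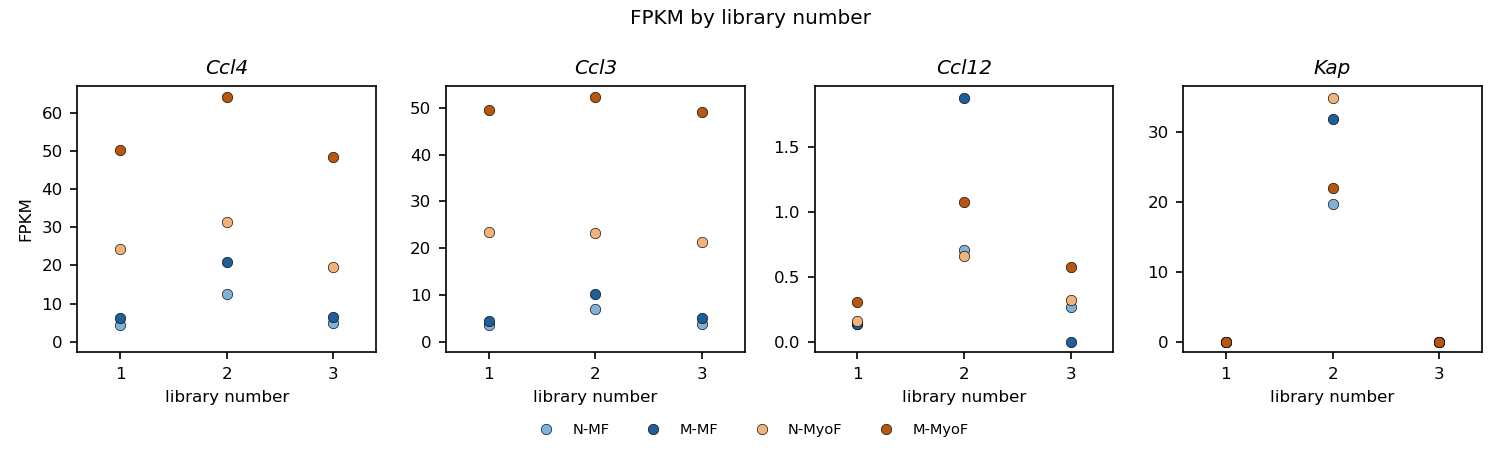
FPKM of Ccl4, Ccl3, Ccl12 and Kap (vertical axes, a scale for each gene) against the library number 1 to 3, with 1 point per library coloured by group. In all 4 groups library 2 holds the highest Ccl4 and Ccl12 value, and Kap is above 0 only in the libraries numbered 2.

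With metastasis the summed level of the 10 chemokines was higher in both subgroups. The sum was 1321 ± 16.0 FPKM (SD, n = 3) in N-MF and 2461 ± 20.1 in M-MF, and 331 ± 1.53 in N-MyoF and 643 ± 2.41 in M-MyoF. The Ccl2 stretch supplied 97.7% to 98.6% of the sum in N-MF libraries and 97.4% to 98.3% in M-MF. In the MyoF libraries its share was 68.2% to 71.7% in N-MyoF and 67.3% to 69.8% in M-MyoF. Within that stretch Ccl2, Ccl7 and Ccl11 were the most abundant genes in the MF libraries. The groups did not overlap in the sum, on which no test was run.

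Of the 10 genes, 9 passed the filter of at least 1 FPKM in at least 3 libraries, and Ccl12 did not. In M-MF against N-MF, 6 of the 9 rose, 0 fell and 3 did not pass the test, at an adjusted p under 0.05 by limma. Over all 13300 genes 46.3% rose and 31.8% fell, which is the background for this count. Of the 9, 5 rose at least 2-fold on the log2(FPKM + 1) scale, against 9.32% of all genes. The median log2 difference was 1.0 over the 9 genes and 0.08 over all genes. In M-MyoF against N-MyoF all 9 rose, where 49.1% of all genes did and 31.6% fell, and 6 rose at least 2-fold, where 11.4% did. The libraries of the 2 groups did not overlap for 6 genes in MF, where this held for 47.1% of all genes in that direction, and for 9 in MyoF, where it held for 49.9%. The median in MyoF was 1.11 over the 9 genes and 0.11 over all genes. Scaling by median ratios moved the median of all genes to -0.03 in both comparisons, and quantile normalization to -0.10 in MF and -0.11 in MyoF. The members that rose at least 2-fold in MF were then 3 with equal sums per library or median-ratio scaling (Ccl5, Ccl8 and Ccl9) and 2 with quantile normalization (Ccl5 and Ccl9). In MyoF they were 4 under each of these scalings, without Ccl3 and Ccl4. With a pseudocount of 5 they were 3 in MF and 2 in MyoF. The share of all genes that rose at least 2-fold was not computed under these settings, so these counts have no background.

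**Figure D2:**
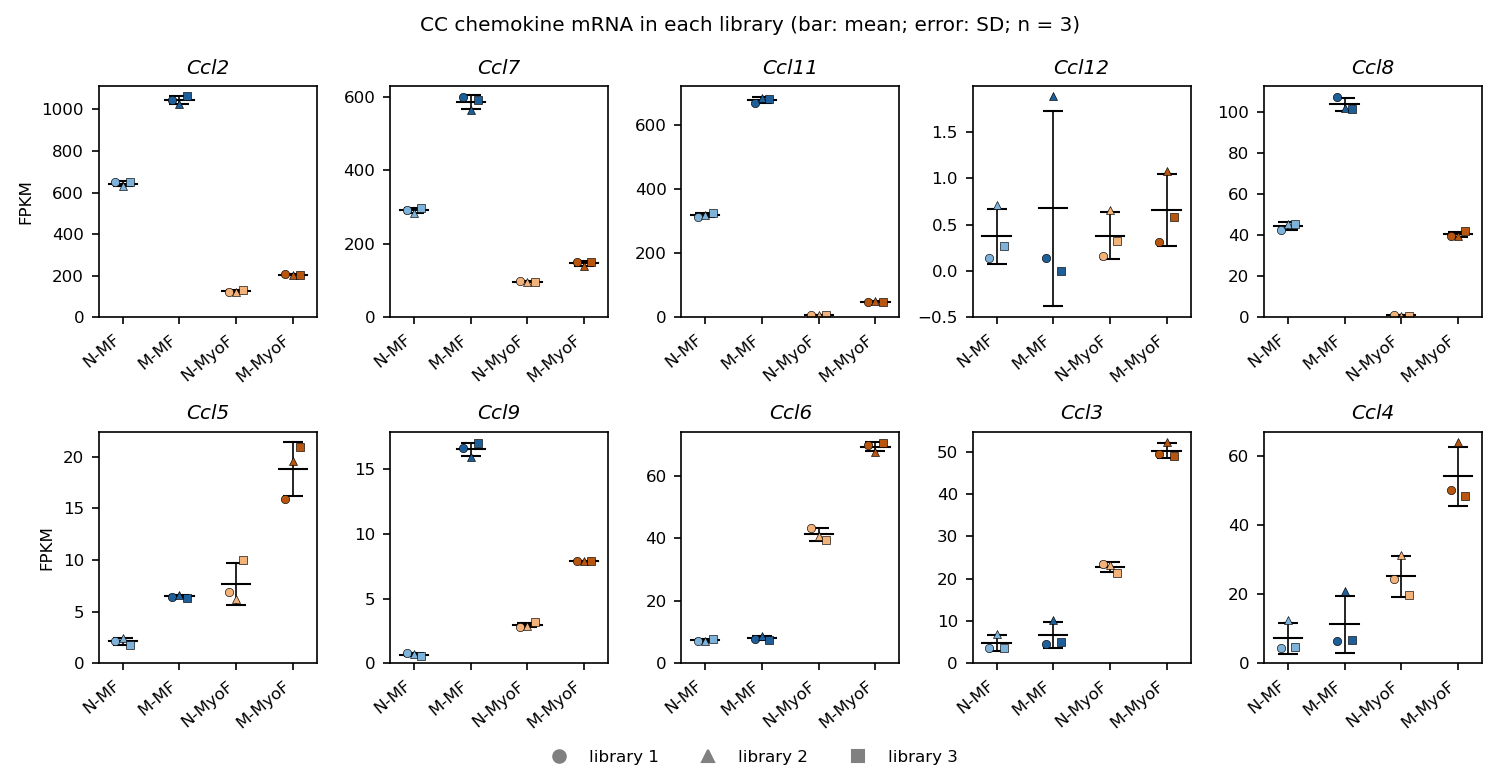
FPKM (vertical axes, a linear scale for each gene) of the 10 chemokines in the 12 libraries by group, in chromosome order from Ccl2 to Ccl4. Points are libraries, shaped by library number, horizontal bars are means and error bars are SD (n = 3); the upper genes are highest in M-MF, except Ccl12, whose groups overlap, and the lower genes are highest in M-MyoF, except Ccl9.

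Ccl2, the main attractant of inflammatory monocytes, had the highest mean of the 10 genes in every group. It was at 648.7, 629.68 and 650.51 FPKM in N-MF libraries 1 to 3 and at 1045.23, 1025.08 and 1064.74 in M-MF. In the MyoF subgroup it was at 123.52, 120.46 and 130.91 FPKM in N-MyoF and at 209.85, 204.74 and 203.49 in M-MyoF. The 4 groups did not overlap, and their order was M-MF, N-MF, M-MyoF, N-MyoF. Ccl2 rose by 0.70 ± 0.0279 (log2 difference ± SE; adjusted p = 9.55e-11) in MF and by 0.72 ± 0.0279 (adjusted p = 6.33e-11) in MyoF. The 2 increases differed by -0.02, with a 95% interval of -0.10 to 0.07 and an adjusted p of 0.713. Quantile normalization turned that difference to 0.28 (adjusted p = 0.000133), with a MyoF increase of 0.39 and an MF increase of 0.67.

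Ccl7, a second ligand of Ccr2 whose gene neighbours Ccl2, followed the same order of groups. It was at 291.1, 285.21 and 298.79 FPKM in N-MF, 600.46, 564.39 and 591.22 in M-MF, 98.96, 95.07 and 97.53 in N-MyoF and 150.77, 139.04 and 149.94 in M-MyoF. No group overlapped another. It rose by 1.0 ± 0.0331 in MF (adjusted p = 1.46e-11) and by 0.59 ± 0.0331 in MyoF (adjusted p = 2.80e-09). The increase was larger in MF by 0.41 ± 0.0468 (adjusted p = 7.14e-06). Per unit of Ccl2, Ccl7 stood at 0.454 ± 0.00532 in N-MF and 0.560 ± 0.0127 in M-MF, and at 0.778 ± 0.0296 in N-MyoF and 0.711 ± 0.0295 in M-MyoF.

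Ccl8, a monocyte chemokine whose gene is the last of the same stretch, showed the largest change of the 9 genes in the MyoF subgroup. It was near the floor in N-MyoF, at 1.39, 0.9 and 0.69 FPKM, and at 39.52, 39.93 and 42.05 in M-MyoF. In the MF subgroup it was already at 42.4, 45.71 and 45.66 FPKM in N-MF and reached 107.51, 102.18 and 101.86 in M-MF. N-MF and M-MyoF thus lay side by side, with the lowest N-MF library at 42.4 and the highest M-MyoF library at 42.05 FPKM. The increase was 1.20 ± 0.0921 (adjusted p = 7.14e-08) in MF and 4.39 ± 0.0921 (adjusted p = 1.56e-13) in MyoF. As a ratio of mean FPKM these were 2.33-fold and 40.8-fold. The MF increase minus the MyoF increase was -3.19 ± 0.130 (adjusted p = 4.88e-10).

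Ccl12, which resembles Ccl2 and is known for recruiting monocytes in mice, was barely detected. It was at 0.14, 0.71 and 0.27 FPKM in N-MF, 0.14, 1.88 and 0 in M-MF, 0.16, 0.66 and 0.32 in N-MyoF and 0.31, 1.08 and 0.58 in M-MyoF. All 4 groups overlapped, and the highest value of each group was in library 2. With no filter, in a test of 20604 genes, its difference was 0.14 (adjusted p = 0.806) in MF and 0.25 (adjusted p = 0.561) in MyoF. Without the libraries numbered 2 its highest value was 0.58 FPKM. Its gene lies between Ccl11 and Ccl8, both of which were above 40 FPKM in every MF library.

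Ccl11, the eotaxin that attracts eosinophils, had the largest log2 differences between the subgroups of the 9 tested genes, in normal lung and with metastasis. It was at 313.91, 317.91 and 324.92 FPKM in N-MF and at 667.31, 685.04 and 680.64 in M-MF. In MyoF it was at 6.91, 7.37 and 7.53 FPKM in N-MyoF and 47.6, 49.75 and 48.97 in M-MyoF. None of the 4 groups overlapped. It rose by 1.09 ± 0.0284 (adjusted p = 1.48e-12) in MF and by 2.59 ± 0.0284 (adjusted p = 5.31e-16) in MyoF, and the MF increase minus the MyoF increase was -1.50 ± 0.0401 (adjusted p = 1.02e-11). Per unit of Ccl2 it stood at 0.496 ± 0.0109 in N-MF and 0.649 ± 0.0170 in M-MF, but at 0.0582 ± 0.00269 in N-MyoF and 0.237 ± 0.00873 in M-MyoF.

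Ccl8 per unit of Ccl11 was similar in N-MF and M-MF and higher in M-MyoF, while its value in N-MyoF was imprecise. Ccl8 per unit of Ccl11 was 0.140 ± 0.00440 in N-MF, 0.153 ± 0.00676 in M-MF and 0.138 ± 0.0565 in N-MyoF, against 0.831 ± 0.0280 in M-MyoF. The M-MyoF libraries spanned 0.803 to 0.859, and the highest value in any other library was 0.201. In N-MyoF the ratio ran from 0.0916 to 0.201, because Ccl8 was near the floor there, at 0.69 to 1.39 FPKM. No test of this ratio was run.

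Relative to Col1a1, the collagen gene that marks fibroblasts and was chosen here as a scale, the Ccl2 stretch also stood higher with metastasis. Ccl2 per unit of Col1a1 was 0.218 ± 0.00841 in N-MF and 0.422 ± 0.0172 in M-MF, and 0.307 ± 0.0213 in N-MyoF and 0.517 ± 0.00712 in M-MyoF. By this measure Ccl2 was higher in MyoF than in MF in normal lung and with metastasis, the opposite of its order in FPKM. Ccl7 turned in the same way, at 0.0991 ± 0.00457 in N-MF and 0.238 ± 0.00930 in N-MyoF, and 0.236 ± 0.0114 in M-MF and 0.368 ± 0.0197 in M-MyoF. Ccl8 kept its order in normal lung, at 0.0152 ± 0.000792 in N-MF and 0.00243 ± 0.000853 in N-MyoF, and turned with metastasis, at 0.0419 ± 0.00141 in M-MF and 0.102 ± 0.00497 in M-MyoF. Ccl11 kept its order in both, at 0.108 ± 0.00415 in N-MF and 0.0178 ± 0.00110 in N-MyoF, and 0.274 ± 0.00675 in M-MF and 0.122 ± 0.00346 in M-MyoF. These orders can depend on the marker, and ratios to other fibroblast markers were not computed. Col1a1 was at 2945 FPKM in N-MF and 408 in N-MyoF, and Dcn at 10534.5 and 857. Lum was at 1500 and 1003 in the same groups, and Pdgfrb at 87.7 and 120.

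Ccl5, also called RANTES, an attractant of T cells, monocytes and eosinophils, was low in the MF subgroup and higher in MyoF. It was at 2.17, 2.46 and 1.8 FPKM in N-MF, 6.44, 6.65 and 6.34 in M-MF, 6.92, 6.18 and 9.97 in N-MyoF and 15.86, 19.61 and 20.92 in M-MyoF. M-MF and N-MyoF overlapped, and the other neighbours in that order did not. It rose by 1.26 ± 0.139 (adjusted p = 2.79e-06) in MF and 1.20 ± 0.139 (adjusted p = 3.76e-06) in MyoF. The difference of these increases was 0.05, with a 95% interval of -0.38 to 0.48 and an adjusted p of 0.833.

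Ccl9, a Ccr1 ligand of myeloid cells, was the member that changed most in MF. It was at 0.79, 0.68 and 0.55 FPKM in N-MF and at 16.62, 15.95 and 17 in M-MF. In MyoF it was at 2.84, 2.9 and 3.17 FPKM in N-MyoF and at 7.94, 7.87 and 7.89 in M-MyoF. No group overlapped another, and the order of the subgroups changed: N-MF was the lowest group and M-MF the highest. It rose by 3.39 ± 0.0527 (adjusted p = 1.10e-14) in MF and by 1.17 ± 0.0527 (adjusted p = 2.98e-10) in MyoF, a difference of 2.22 ± 0.0746 (adjusted p = 8.02e-11). As a ratio of mean FPKM the MF change was 24.5-fold, and the MyoF change 2.66-fold.

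Ccl6, another Ccr1 ligand made by macrophages, did not share that pattern although it is the neighbour of Ccl9. It was at 7.23, 6.99 and 7.79 FPKM in N-MF and at 7.71, 8.69 and 7.61 in M-MF, which overlapped. It was at 43.46, 40.75 and 39.55 FPKM in N-MyoF and at 70.01, 67.63 and 70.46 in M-MyoF, which did not. Ccl6 rose by 0.74 ± 0.0509 (adjusted p = 2.26e-08) in MyoF. In MF the difference was 0.11, with a 95% interval of -0.00096 to 0.22 and an adjusted p of 0.065. It passed without N-MF library 3 (0.15, adjusted p = 0.0235), without M-MF library 3 (0.14, adjusted p = 0.0362) and without all 4 libraries numbered 3 (0.18, adjusted p = 0.0172), and was 0.03 (adjusted p = 0.668) without the 4 numbered 2. Median-ratio scaling turned it to -0.01 and quantile normalization to -0.03, and neither passed. The MF difference minus the MyoF difference was -0.63 ± 0.0720 (adjusted p = 8.50e-06).

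Ccl3 and Ccl4, the macrophage inflammatory proteins that attract monocytes and T cells, were highest in M-MyoF. Ccl3 was at 3.6, 7.03 and 3.71 FPKM in N-MF, 4.54, 10.27 and 5.14 in M-MF, 23.45, 23.33 and 21.36 in N-MyoF and 49.47, 52.2 and 49.02 in M-MyoF. Ccl4 was at 4.36, 12.44 and 4.85 FPKM in N-MF, 6.31, 20.9 and 6.62 in M-MF, 24.4, 31.35 and 19.68 in N-MyoF and 50.25, 63.97 and 48.39 in M-MyoF. For both genes the MF groups overlapped and the MyoF groups did not. For Ccl4 the M-MF library 2 reached into the N-MyoF range.

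In MyoF, Ccl3 rose by 1.11 ± 0.242 (adjusted p = 0.000957) and Ccl4 by 1.09 ± 0.408 (adjusted p = 0.0261). The Ccl4 call was lost with equal sums per library (0.92, adjusted p = 0.0663), median-ratio scaling (0.93, adjusted p = 0.0533) and quantile normalization (0.86, adjusted p = 0.0644). It was also lost without N-MyoF library 1 (1.08, adjusted p = 0.0554), N-MyoF library 3 (0.93, adjusted p = 0.0834), M-MyoF library 2 (0.97, adjusted p = 0.079) or the 4 libraries numbered 3 (1.01, adjusted p = 0.107). Without the 4 libraries numbered 2, Ccl4 rose by 1.13 (adjusted p = 6.83e-06) and Ccl3 by 1.10 (adjusted p = 7.23e-07).

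In MF the differences of Ccl3 and Ccl4 did not pass. Ccl3 differed by 0.38 (95% interval -0.15 to 0.91, adjusted p = 0.168) and Ccl4 by 0.51 (-0.38 to 1.40, adjusted p = 0.266). Without the 4 libraries numbered 2 both passed, with Ccl3 at 0.33 (adjusted p = 0.00149) and Ccl4 at 0.41 (adjusted p = 0.0033). Without N-MF library 2 alone Ccl3 was at 0.64 (adjusted p = 0.02) and Ccl4 at 0.93 (adjusted p = 0.0445), and without M-MF library 2 alone at 0.06 and -0.01. The difference between the subgroups' effects was -0.73 for Ccl3 (95% interval -1.48 to 0.01, adjusted p = 0.079) and -0.58 for Ccl4 (-1.84 to 0.68, adjusted p = 0.397). With the library number as a block, that of Ccl3 passed (adjusted p = 0.0222), as it did with a pseudocount of 5 (-0.76, adjusted p = 0.00919). Without M-MF library 2 the difference was -1.05 for Ccl3 (adjusted p = 0.00333) and -1.10 for Ccl4 (adjusted p = 0.0463), and without the 4 libraries numbered 2 it was -0.78 (adjusted p = 0.000165) and -0.72 (adjusted p = 0.00196).

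**Figure D3:**
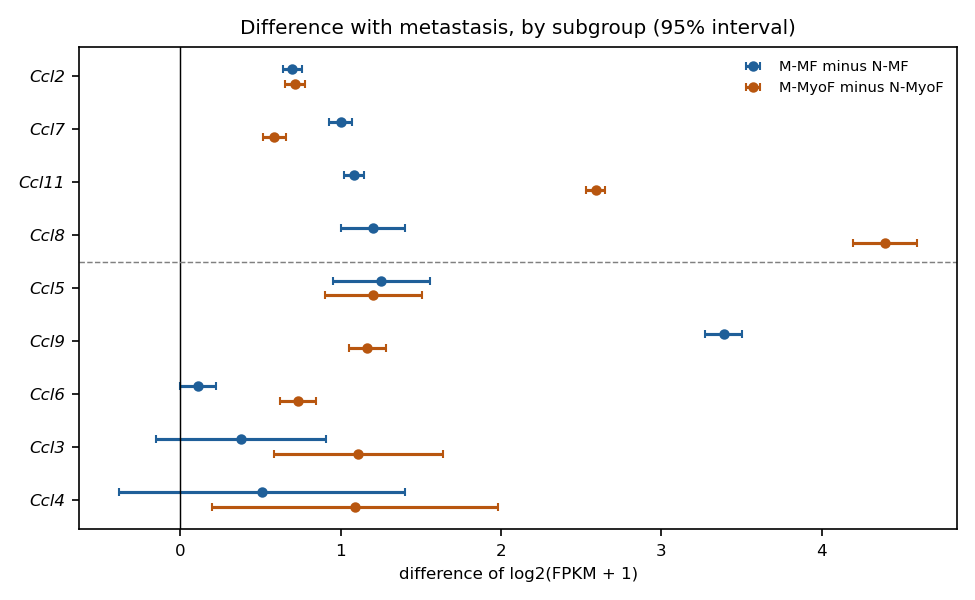
Difference of log2(FPKM + 1) with metastasis (horizontal axis) for the 9 tested chemokines in MF (blue) and MyoF (orange), with 95% intervals from the fit across all genes; the dashed line divides the Ccl2 stretch from the Ccl5 stretch. Ccl8 and Ccl11 lie further right in MyoF (4.39 and 2.59) than in MF (1.20 and 1.09), and Ccl9 further right in MF (3.39 against 1.17).

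The increases of the members differed between the subgroups for 5 of the 9 genes. They were larger in MF for Ccl7 and Ccl9 and larger in MyoF for Ccl6, Ccl8 and Ccl11. Over all genes 26.4% had a larger value in MF and 38% a larger value in MyoF, so 5 of 9 is no more than the 64.4% of all genes whose effects differed. Of the 9, 3 differed by at least 2-fold: Ccl9 towards MF, where 3.83% of all genes did, and Ccl8 and Ccl11 towards MyoF, where 3.27% did.

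In normal lung the 9 genes divided between the subgroups by their stretch of the chromosome. The 4 tested genes of the Ccl2 stretch were higher in N-MF than in N-MyoF and the 5 genes of the Ccl5 stretch were lower. The differences were 2.35 for Ccl2, 1.58 for Ccl7, 5.27 for Ccl11 and 4.53 for Ccl8, and -1.45 for Ccl5, -1.25 for Ccl9, -2.34 for Ccl6, -2.09 for Ccl3 and -1.78 for Ccl4. All 9 passed, where 24.5% of all genes were higher and 57.6% lower. All 9 were also at least 2-fold, where 4.88% of all genes were higher and 11.9% lower in N-MF by that much. The groups did not overlap for any of the 9 genes, where 24.6% of all genes had no overlap and were higher in N-MF and 57.8% had none and were lower. As ratios of mean FPKM, Ccl11 was 43.9-fold and Ccl8 44.9-fold higher in N-MF, and Ccl6 was 5.62-fold higher in N-MyoF. The fibroblast marker sums were higher in MF and the leukocyte and epithelial sums higher in MyoF over the same libraries, and their part in this division was not tested.

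With metastasis the same division held for 8 of the 9 genes. M-MF was above M-MyoF by 2.34 for Ccl2, 1.99 for Ccl7, 3.77 for Ccl11 and 1.34 for Ccl8. The difference was -1.40 for Ccl5, -2.97 for Ccl6, -2.82 for Ccl3 and -2.36 for Ccl4. Ccl9 was the exception, at 0.98 ± 0.0527 above (adjusted p = 1.96e-09) where the difference was -1.25 in normal lung. Over all genes 19.1% were higher and 66% lower in M-MF. By at least 2-fold 4 of the 9 genes were higher, as were 4.74% of all genes, and 4 were lower, as were 8.82%. The groups did not overlap for 5 genes higher and 4 lower in M-MF, against 19.4% and 66.2% of all genes.

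**Figure D4:**
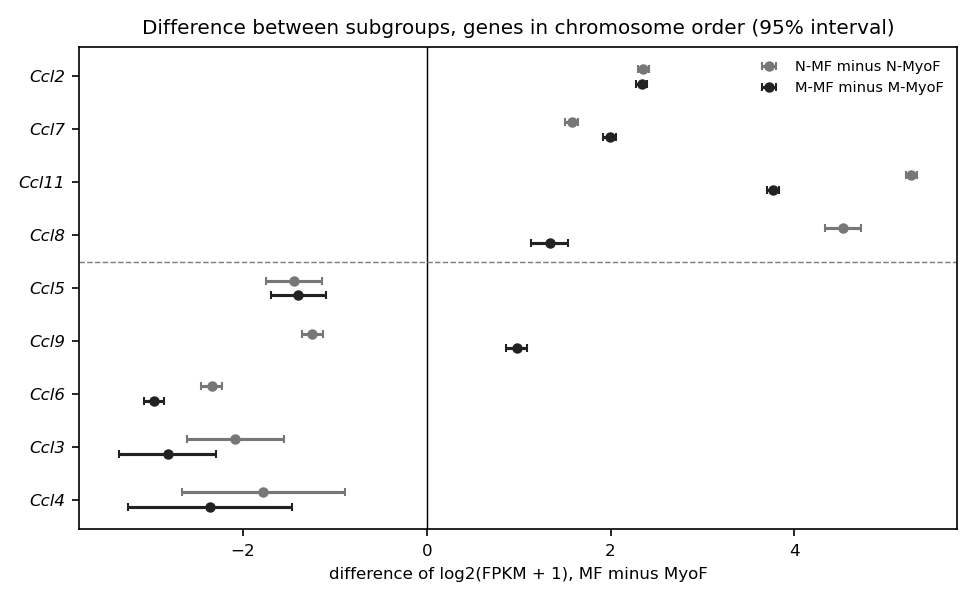
Difference of log2(FPKM + 1) between the subgroups, MF minus MyoF (horizontal axis), in normal lung (grey) and with metastasis (black) for the 9 tested chemokines in chromosome order, with 95% intervals; the dashed line divides the stretches. Genes above the line lie right of 0 and genes below it left of 0, except Ccl9, which moves from -1.25 to 0.98.

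Some lists of leukocyte markers rose in MyoF, where all 9 tested chemokines of both stretches rose, and other lists were mixed. Of 6 common leukocyte markers, 6 rose in M-MyoF against N-MyoF, among them Tyrobp by 2.01 and Cd52 by 3.23, and in M-MF against N-MF 1 rose and 2 fell. For this and the later marker lists the background is all genes, of which 46.3% rose and 31.8% fell in MF. In MyoF 49.1% of all genes rose and 31.6% fell. The 10 neutrophil markers, led by S100a8 and S100a9, summed to 140 to 154 FPKM in N-MyoF and 13368 to 13712 in M-MyoF, and to 33.5 to 38.2 in N-MF and 254 to 262 in M-MF. The 15 monocyte and macrophage markers, led by Lyz2 and Cd14, summed to 1090 to 1140 FPKM in N-MyoF and 1213 to 1259 in M-MyoF, and to 353 to 369 in N-MF and 378 to 403 in M-MF. Of these, Marco was at 0 in all MF libraries. In M-MyoF against N-MyoF 10 of 10 neutrophil and 5 of 5 tested mast cell and basophil markers rose. Of 12 tested monocyte and macrophage markers 3 rose and 5 fell, and of 3 eosinophil markers 1 rose and 2 fell. Of 6 tested T and NK cell markers 2 rose and 1 fell, and of 2 dendritic cell markers 1 rose and 1 fell. The part of leukocytes in the chemokine results was not tested.

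Set against Ptprc (CD45), a leukocyte marker chosen for this ratio after its values were seen, Ccl3 and Ccl5 had overlapping values in the MyoF groups. The ratio of Ccl3 to Ptprc was 5.99 ± 0.418 in N-MyoF and 5.28 ± 0.357 in M-MyoF, and Ccl5 per unit of Ptprc was 2.02 ± 0.487 and 1.98 ± 0.289. Ccl6 per unit of Ptprc was lower with metastasis there, at 10.9 ± 0.583 and 7.29 ± 0.0761. In MF the mean ratio to Ptprc was higher with metastasis for each of Ccl3, Ccl4, Ccl5 and Ccl6. The Ccl4 ratios overlapped there, at 6.81 to 16.8 in N-MF and 12.7 to 43.5 in M-MF. Ccl5 per unit of Ptprc was 3.33 ± 0.0591 in N-MF and 13.6 ± 1.25 in M-MF. Ccl3 stood at 7.29 ± 1.99 and 13.9 ± 6.52, Ccl4 at 10.8 ± 5.29 and 23.5 ± 17.3, and Ccl6 at 11.6 ± 2.38 and 16.8 ± 1.86. Ptprc itself was at 0.643 FPKM in N-MF, 0.480 in M-MF, 3.80 in N-MyoF and 9.52 in M-MyoF, and these ratios were not tested. In MF ratios to the other common leukocyte markers were not computed, so the higher ratios there can depend on Ptprc. Of the 6 markers 1 rose and 2 fell in MF. Cd52 was at 2.17 FPKM in N-MF and 3.39 in M-MF, and Laptm5 at 4.44 and 2.05. The overlap of Ccl3 and Ccl5 in MyoF depends on the marker. Over the 6 common leukocyte markers, Ccl3 per unit of marker was lower in M-MyoF without overlap for 4, overlapped for 1 and was higher for 1, and Ccl5 was lower for 3, overlapped for 2 and was higher for 1. Ccl3 per unit of Laptm5, the marker with the higher ratio, was 1.04 ± 0.0779 in N-MyoF and 1.74 ± 0.0890 in M-MyoF, and per unit of Coro1a it was 1.97 ± 0.0920 and 0.657 ± 0.00878.

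Eosinophil markers were low in all groups, including M-MF, where Ccl11 was highest. The 9 markers summed to 5.10 to 5.99 FPKM in N-MF, 12.5 to 13.5 in M-MF, 18.7 to 20.3 in N-MyoF and 5.72 to 6.76 in M-MyoF, and Ear1 and Alox15 led the list. Of 3 eosinophil granule protein genes, Epx and Prg3 were listed at 0 in every MF and M-MyoF library, and Prg2 was at 0.07 to 0.68 FPKM over the 12 libraries. Ear1, which alveolar macrophages may also express, rose by 1.33 in MF (adjusted p = 1.08e-07) and fell by 2.42 in MyoF (adjusted p = 2.18e-10).

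Markers of other cells also moved with metastasis in the libraries where the chemokines rose. The 6 mesothelial markers, led by Msln and Lrrn4, summed to 6.72 to 7.03 FPKM in N-MF and 241 to 246 in M-MF, and to 81.8 to 82.6 in N-MyoF and 206 to 213 in M-MyoF. The 7 mast cell and basophil markers, led by Mcpt8 and Cpa3, summed to 0.17 to 0.36 FPKM in N-MF, 4.62 to 5.48 in M-MF, 0.05 to 0.52 in N-MyoF and 30.3 to 32.7 in M-MyoF. Endothelial markers, led by Cldn5 and Pecam1, summed to 113 to 116 FPKM in N-MF and 199 to 203 in M-MF, and to 353 to 364 in N-MyoF and 434 to 443 in M-MyoF. Of the 5 endothelial markers 4 rose and 1 fell in MF. In MyoF 2 rose and 2 fell, with Cldn5 at 243 FPKM in N-MyoF and 316 in M-MyoF and Kdr at 12.9 and 7.39, so the higher sum there was not shared by the list. T and NK cell markers, led by Gzma and Nkg7, summed to at most 2.61 FPKM in MF and 20.0 in MyoF, and dendritic cell markers, led by Ccr7 and Zbtb46, to at most 7.23 and 13.9. Of the 6 epithelial markers 4 rose and 2 fell in MF, and 2 rose and 3 fell in MyoF. Krt8 was at 5.31 FPKM in N-MF and 166 in M-MF, and at 23.0 in N-MyoF and 387 in M-MyoF. Krt18 was at 4.79 and 122 in MF, and at 24.5 and 293 in MyoF. The epithelial sum was lower in M-MyoF, at 15809 to 16338 FPKM against 18701 to 19199 in N-MyoF. The part of these cells in the chemokine results was not tested.

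The summed markers of the subgroups were lower with metastasis. Of 6 matrix fibroblast markers 5 fell in MF and 5 in MyoF, and of 6 myofibroblast markers 2 fell and 4 rose in MF and 3 fell and 2 rose in MyoF. Matrix fibroblast markers, led by Inmt and Pi16, summed to 5465 to 5660 FPKM in N-MF and 1595 to 1627 in M-MF, and to 653 to 671 in N-MyoF and 289 to 295 in M-MyoF. Myofibroblast markers, led by Hhip and Aspn, summed to 4460 to 4569 FPKM in N-MyoF and 2934 to 2989 in M-MyoF, and to 447 to 464 in N-MF and 294 to 298 in M-MF. The higher Ccl2, Ccl7 and Ccl11 of M-MF thus stood beside lower matrix fibroblast markers.

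The upstream sequence was available here for 5 of the 10 genes, Ccl3, Ccl6, Ccl8, Ccl9 and Ccl12, from RefSeq on GRCm38.p6. The 250 bases before each start were searched on both strands for the NF-kappaB site, the STAT6-type element, in which 4 bases of any kind part TTC from GAA, and the AP-1 site TGANTCA. Ccl9, the gene with the largest increase in MF, was the only 1 of the 5 with a match. Ccl8, the gene with the largest increase in MyoF, had none. The 250 bases of Ccl9 are printed because they hold the matches, from chr11:83578637-83578886 on the minus strand, 5′ to 3′, with the matches in capitals.

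Ccl9 upstream: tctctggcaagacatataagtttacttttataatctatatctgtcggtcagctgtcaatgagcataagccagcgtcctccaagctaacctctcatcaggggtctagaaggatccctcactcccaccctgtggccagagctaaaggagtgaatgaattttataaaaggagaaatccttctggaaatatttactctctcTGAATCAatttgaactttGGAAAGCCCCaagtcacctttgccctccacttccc

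The first run of capitals, 53 to 47 bases before the start, matched the AP-1 site, and the second, 35 to 26 bases before it, matched the NF-kappaB site on the minus strand relative to the gene. The 2 matches do not overlap. Of 32851 promoters of the same length, 7.25% held the NF-kappaB site, 6.75% the AP-1 site and 5.85% the STAT6-type element. A match describes letters only, and the absence of one says only that these letters are not in this window.

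Of the signalling receptors Ccr1, Ccr2 and Ccr3, only Ccr1 in MyoF was above 1 FPKM. Ccr2 and Ccr3, the signalling receptors for Ccl2 and Ccl11, stayed below 1 FPKM in all 12 libraries and were not tested. Ccr2 was at 0.14 to 0.27 FPKM in N-MF and 0.17 to 0.26 in M-MF, and at 0.63 to 0.78 in N-MyoF and 0.68 to 0.8 in M-MyoF, so its groups overlapped within each subgroup. Ccr1, the receptor of Ccl3, Ccl5, Ccl6 and Ccl9 on myeloid cells, was at 2.75, 2.59 and 2.82 FPKM in N-MyoF and 16.88, 17.15 and 17.79 in M-MyoF, an increase of 2.30 (adjusted p = 8.82e-11). In MF it was below 1 FPKM in both groups, with a difference of -0.02 (adjusted p = 0.856).

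The atypical receptors bind chemokines without signalling in the usual way. Ackr2, which scavenges inflammatory CC chemokines, was at 21.09, 19.61 and 19.12 FPKM in N-MF, 27.93, 28.43 and 28.02 in M-MF, 6.24, 6.93 and 6.38 in N-MyoF and 9.36, 9.44 and 8.66 in M-MyoF. It rose by 0.48 (adjusted p = 6.30e-07) in MF and 0.43 (adjusted p = 1.44e-06) in MyoF, and its groups stood in the same order as those of Ccl2. Ackr1, which carries chemokines across venous endothelium, rose by 0.44 (adjusted p = 0.000745) and 1.34 (adjusted p = 2.20e-08). Ccrl2, a non-signalling relative, had the highest level of the 15 receptor genes, at 63.2 FPKM in N-MF and 287 in N-MyoF. It fell by 0.15 (adjusted p = 0.000767) in MF and by 0.45 (adjusted p = 1.93e-08) in MyoF. As background, 46.3% of all genes rose and 31.8% fell in MF, and 49.1% rose and 31.6% fell in MyoF. Of the 15, 6 were tested, of which 2 rose and 3 fell in MF and 3 rose and 3 fell in MyoF. Ccr7, the homing receptor of lymphocytes and dendritic cells, was among those that fell, by 0.46 and 0.34.

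**Figure D5:**
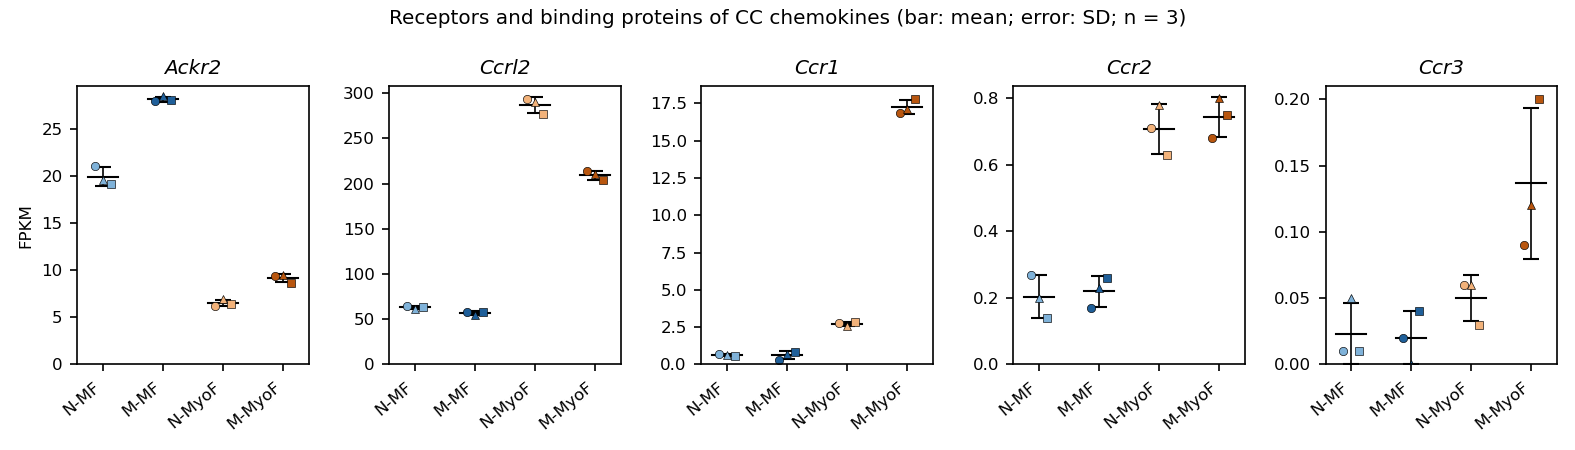
FPKM (vertical axes, a linear scale for each gene) of Ackr2, Ccrl2, Ccr1, Ccr2 and Ccr3 in the 12 libraries by group; points are libraries, bars means and error bars SD (n = 3). Ackr2 is highest in M-MF, Ccrl2 in N-MyoF and Ccr1 in M-MyoF, and Ccr2 and Ccr3 stay below 1 FPKM.

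Other CC chemokines were lower than the main members and moved in both directions. Of 11 listed genes 10 were found and 5 were tested, of which 2 rose and 1 fell in each subgroup. The shares of all genes were 46.3% up and 31.8% down in MF and 49.1% up and 31.6% down in MyoF. Ccl19, which guides cells through Ccr7, was at 5.07 FPKM in N-MF and 19.4 in M-MF, an increase of 1.75 (adjusted p = 2.07e-07), and differed by 0.16 (adjusted p = 0.342) in MyoF. Ccl20, the ligand of Ccr6, was listed at 0 in N-MF and at 1.63 FPKM in M-MF, and rose from 0.277 to 1.87 FPKM in MyoF (1.17, adjusted p = 1.20e-08). Ccl27a fell by 0.95 in MF (adjusted p = 0.00393) and Ccl17 fell by 0.67 in MyoF (adjusted p = 0.000424), while Ccl25 rose by 0.59 in MyoF (adjusted p = 8.64e-05).

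Cytokines known to induce CC chemokines moved in both directions. Of 14 genes 9 were tested, of which 4 rose and 4 fell in MF and 6 rose and 2 fell in MyoF. Among all genes 46.3% rose and 31.8% fell in MF, and 49.1% rose and 31.6% fell in MyoF. Il33, an alarmin, rose by 1.09 in MF (adjusted p = 3.16e-11) and 1.60 in MyoF (adjusted p = 6.00e-13), and Tslp, an epithelial and stromal cytokine of type 2 immunity, by 1.36 and 3.09. Il1b rose by 1.68 in MyoF (adjusted p = 1.07e-11) and fell by 0.17 in MF (adjusted p = 0.0132). Osm rose by 0.69 and 2.41, and Csf1, the macrophage growth factor, by 0.11 and 0.88, the first of which turned to -0.12 (adjusted p = 0.00115) under quantile normalization. Il6 fell in both, by 1.49 (adjusted p = 3.58e-13) and 1.73 (adjusted p = 7.56e-14).

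All 14 receptor genes for these cytokines were tested, of which 10 rose and 3 fell in MF and 7 rose and 4 fell in MyoF, which quantile normalization made 6 and 8. The MyoF counts as deposited were near the shares of all genes, 49.1% up and 31.6% down. In MF these shares were 46.3% and 31.8%. Il13ra1, a receptor chain for interleukins 4 and 13, which induce Ccl11 in fibroblasts, rose by 1.67 in MF (adjusted p = 4.48e-13) and 1.63 in MyoF (adjusted p = 4.58e-13). Tnfrsf1b rose by 1.23 and 1.30. Il4ra, the partner chain of Il13ra1, was chosen after its values were seen. It was at 24.3 FPKM in N-MF and 56.0 in M-MF, an increase of 1.17 (adjusted p = 5.33e-13), but fell by 0.07 in MyoF (adjusted p = 0.0334). The most abundant receptors changed less: Tnfrsf1a rose by 0.44 and Ifnar2 by 0.39 in MF, Ifngr1 fell by 0.35 in MF and rose by 0.20 in MyoF (-0.12 under quantile normalization), and Il6st fell by 0.18 and 0.25.

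Of 17 transcription factors and feedback genes of chemokine induction, 5 rose and 8 fell in MF (2 and 12 under quantile normalization) and 2 rose and 14 fell in MyoF. Among all genes as deposited, 46.3% rose and 31.8% fell in MF, and 49.1% rose and 31.6% fell in MyoF. Zfp36, which destabilises chemokine and cytokine mRNA, fell by 0.66 (adjusted p = 5.50e-13) and 0.91 (adjusted p = 2.74e-14). Nfkbia, the NF-kappaB inhibitor, fell by 0.67 in MyoF (adjusted p = 2.22e-13) and differed by 0.01 in MF (adjusted p = 0.532). Nfkb1 fell by 0.10 and 1.20, Nfkbiz by 0.44 and 1.06, and Socs3 by 0.73 and 0.23.

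Of 7 interferon-inducible genes 6 were found, and all 6 rose in each subgroup, with medians of 1.09 in both, except that Cxcl10 in MyoF turned direction under all 3 scalings. The share of all genes that rose was 46.3% in MF and 49.1% in MyoF. Cxcl9, an interferon-gamma target, was at 0.233 FPKM in N-MF and 10.7 in M-MF and at 0.22 in N-MyoF and 12.6 in M-MyoF. Cxcl10 rose by 1.02 in MF (adjusted p = 4.03e-11) and 0.10 in MyoF (adjusted p = 0.0247), which became -0.21 (adjusted p = 0.000102) under quantile normalization. Gbp2 rose by 0.71 and 1.10 and Isg15 by 0.90 and 1.08.

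Genes that trim chemokines or hold them on cell surfaces were mixed, with 9 up and 5 down in MF (5 and 6 under quantile normalization) and 6 up and 7 down in MyoF, of 14 tested. All genes as deposited gave 46.3% up and 31.8% down in MF and 49.1% up and 31.6% down in MyoF. Mmp2, a protease that cleaves Ccl7, fell by 0.95 (adjusted p = 8.00e-13) and 0.87 (adjusted p = 1.54e-12). Sdc4, a heparan sulfate carrier, rose by 1.39 in MF (adjusted p = 7.79e-16) and fell by 0.48 in MyoF (adjusted p = 1.03e-11). Gpc3 fell by 1.79 in MF and 0.34 in MyoF, Sdc2 fell by 0.65 and 0.52, and Gpc1 rose by 1.96 and 2.13.

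The genes most like each member were found by Pearson's r on log2(FPKM + 1) over the 12 libraries, among 4952 genes whose group means spanned at least 2-fold. The libraries share group and library number, so these values only describe the pattern. For Ccl2 they were Dab2 (0.998), Il1r1 (0.998) and Ackr2 (0.997). For Ccl7 they were Col5a3 (0.999), Slc45a3 (0.999) and Mgarp (0.997), and for Ccl11 they included Cfb and Slc1a5 (0.999 each). For Ccl8 they were AI413582 (0.997), Rhbdd3 (0.995) and Slc39a13 (0.994).

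In the Ccl5 stretch, Ccl9 was most like Tmem151a, Sytl1 and Chil3 (0.997 each). Ccl6 was most like Rapgef2 (0.999), Sstr2 (0.997) and Otulinl (0.997). The values were lower for Ccl5, with Tardbp (0.989), Chil1 (0.985) and Elk3 (0.984), and for Ccl3, with Sipa1l3 (0.986), Pilrb1 (0.979) and St14 (0.979). They were lowest for Ccl4, with Thrsp (0.956), Lypd2 (0.947) and Fcer1g (0.942), a leukocyte receptor chain.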

How the data were processed

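Bulk polyA RNA was measured in 12 libraries of mouse lung fibroblasts, 3 in each of 4 groups. Per the labels' protocols, RNA came from Trizol extraction, cDNA from a SMART-seq2 type amplification and libraries from a transposon method. The authors deposited FPKM values, rounded to 2 decimals, for 20606 genes. The build GRCm38 is named in the submitters' processing notes; for the aligner, counter and annotation nothing is stated in the sources used here. Of the table's columns, 0 belonged to no listed sample. The depth is unknown, so the spread between 3 libraries is the only measure of precision.

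Groups were taken from the sample titles. In R 4.3.3 with limma 3.58.1, 4 group means were fitted to log2(FPKM + 1) of the 13300 genes that reached 1 FPKM in 3 or more libraries, with a mean-variance trend. Benjamini-Hochberg adjustment ran over all 13300 genes in each of 5 contrasts, with a threshold of 0.05. The added 1 makes fold changes of low genes too small. The code was tested on simulated data.

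The members, the 7 pathway lists and the 13 marker lists were chosen with earlier results of these data known. The text names all members, their receptors, up to 4 of the most abundant and 2 of the most changed genes of each pathway list, the 2 most abundant of each marker list and the 3 genes most like each member. Some items that the rule names are not reported here. Genes outside it were chosen after their values were seen: Kap, Il4ra, Ptprc, Laptm5, Coro1a, C1qb, C1qc, Ltf, Cxcr2, Kdr, Col1a1, Lum, Pdgfrb, Epcam, Cdh1, Krt8, Krt18, Marco, Epx, Prg2 and Prg3.

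No label says what the library numbers mark. Over 1830 genes at 50 FPKM or more, deviations from the group means correlated at 0.482 to 0.796 in the 18 same-numbered pairs and at -0.683 to 0.380 in the 36 other pairs, so the numbers pair the libraries. Every contrast was refitted with this number as block. Other alternatives were pseudocounts of 0.1 and 5, no filter, a filter of 5 FPKM, 3 scalings, stricter thresholds and leaving out libraries; the setting without the 4 libraries numbered 2 was chosen after seeing the data. Positions came from RefSeq and coding sequences from GENCODE on GRCm38, and were handled with Python 3.11.15 and Biopython 1.88.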

Additional observations from a re-analysis of the deposited data

Results flagged for a closer look

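The effect of metastasis differed between the 2 subgroups for 5 of the 9 chemokines tested, by the test of the difference itself in limma's fit over all genes. The value is the log2 difference with metastasis in MF minus that in MyoF. It was 2.22 for Ccl9 and 0.41 for Ccl7, where the increase was larger in MF. It was -3.19 for Ccl8, -1.50 for Ccl11 and -0.63 for Ccl6, where it was larger in MyoF. Over all genes tested 64.4% had effects that differed, so such a difference is common in these libraries. For Ccl8, Ccl11 and Ccl9 it was above 2-fold.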

How the results depend on the processing

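Each of 45 member results (9 genes in 5 comparisons) was computed under up to 26 alternatives. Of 1161 values, 1120 kept their direction and side of the threshold, 28 changed side only and 13 turned direction, of which 1 passed the test: the difference of the metastasis effects of Ccl2, at 0.28 under quantile normalization against -0.02. The other 12 did not pass before or after. That difference for Ccl2 was 0.0605 with equal sums per library, 0.00718 with median-ratio scaling, 0.0025 without the 4 libraries numbered 2 and -0.0514 to 0.00811 with 1 library left out. The difference for Ccl5 (0.05) was -0.12 without the 4 libraries numbered 3, -0.23 when 5 was the pseudocount and -0.13 to 0.18 with 1 left out. In MF, Ccl6 (0.11) was -0.0108 with median-ratio scaling and -0.0262 with quantile normalization, and Ccl4 (0.51) was -0.0065 to 0.93 with 1 left out. With the threshold of at least 2-fold, 3 of 9 members had effects that differed, against 5 without it. Leaving out 1 library at a time gave 6 to 8 members that rose or fell in M-MF against N-MF, 8 to 9 in M-MyoF against N-MyoF, 5 to 7 for the difference of effects and 9 to 9 in both comparisons between subgroups. With the library number as a block, the difference of effects of Ccl3 passed at -0.73 (adjusted p = 0.0222 against 0.079), and the block changed no other call. Without the 4 libraries numbered 2, 8 members passed in MF, 9 in MyoF and 7 for the difference. The share of all genes that passed was not computed under these alternatives. Ccl3, Ccl4 and Ccl6 account for the changed calls other than those set by stricter thresholds and that of Ccl2 under quantile normalization; the cause was not tested. The unknown depth limits Ccl12, which stayed below 2 FPKM.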
